A study of Homo sapiens with 6 samples.

Results

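The Arp2/3 complex consists of proteins that build branched actin networks. The data on it here are the rows of 10 genes (ACTR2, ACTR3, ACTR3B, ARPC1A, ARPC1B, ARPC2, ARPC3, ARPC4, ARPC5 and ARPC5L), found by symbol among the 60669 genes of the deposited table. All 10 were among the 15637 genes with a mean of at least 10 normalized counts over the libraries. The complex was selected on the fall of ACTR3 in these same libraries, so ACTR3's values chose it and are given as a description, with no test, and the question was whether the other 9 subunits move with it. RNA came from LX-2 cells, an established human line derived from activated hepatic stellate cells and labelled wild type. Cells of both groups were transfected with RNAiMAX lipid reagent for 48 h, either with a commercial negative-control siRNA (siCTL, 3 libraries) or with a single siRNA against ADAMTS12 (siADAMTS12, 3 libraries). With 1 siRNA sequence and 1 cell line, effects of the lost target and effects of that sequence elsewhere cannot be told apart by group alone. The labels do not say whether replicates are independent cultures. The p-values therefore reflect library-to-library spread, which may be technical.

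Arp2/3 binds the side of an existing actin filament and starts a daughter filament from it. The actin-related proteins Arp2 (ACTR2) and Arp3 (ACTR3) take the place of the first actin subunits of the branch, and the ARPC subunits hold them to the mother filament. The complex is idle until a nucleation-promoting factor of the WASP, WAVE or WASH kind brings it actin, and branched networks made this way push lamellipodia forward and move endosomes. The 10 genes fill 7 places, since 3 places can be taken by either member of a paralogue pair: ACTR3 or ACTR3B, ARPC1A or ARPC1B, and ARPC5 or ARPC5L.

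ADAMTS12, the target, lay between 12235 and 13709 normalized counts in the siCTL libraries and between 3449 and 4083 with siADAMTS12, which left 28.5% of the transcript. The deposited columns summed to 33.58 to 34.07 M in siCTL and to 30.68 to 31.42 M in siADAMTS12, and sums of scaled columns are not sequencing depth. Of 9 stellate cell markers, 7 were kept, the vitamin A enzyme LRAT was at 0 in every library and desmin (DES) reached at most 5. The 9 together summed to 336486 to 375944 in siCTL and 261447 to 278589 in siADAMTS12. More of that sum came from VIM (192482 to 212010 and 130409 to 142753) than from any other marker, with COL1A1 next. The groups did not overlap for VIM and PDGFRB, and did for COL1A1, COL1A2, COL3A1, ACTA2 and RELN. Summed hepatocyte markers were 17 to 19 in siCTL and 22 to 27 in siADAMTS12, with TTR at 0, and endothelial markers 28 to 39 and 15 to 24, with STAB2 at 0. Biliary markers, mostly KRT7, summed to 282 to 298 and 233 to 261, and leukocyte markers, mostly CD14, to 100 to 122 and 103 to 126. The groups overlapped for the sum of the leukocyte markers and not for the other sums, and the part of these shifts in any result on the subunits was not tested.

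An siRNA guide strand can also lower transcripts whose 3' untranslated region (UTR) pairs with its seed, guide positions 2 to 8, in the way a microRNA does. The guide of siADAMTS12 and the member sites that match its seed are shown because ACTR3 and a few other subunits hold such a match. Capitals mark the seed in the guide and the bases that pair with it, or that complete the site with an A opposite guide position 1, in the transcripts. The siRNA is from the labels and the sites are from GENCODE 29 transcripts on GRCh38, each 26 bases of the sense strand.
siADAMTS12 sense strand: gccaaaguuugGAGGGAAa
siADAMTS12 guide strand: uUUCCCUCcaaacuuuggc
ACTR3, 8-mer match, chr2:113957871-113957896, plus strand: gaaaaattgtatttGAGGGAAAaaac
ARPC5, 7-mer match to guide positions 2 to 8, chr1:183626371-183626396, minus strand: aaaccacctgaccaaGAGGGAAgtga
ACTR2, match to guide positions 2 to 7 then A, chr2:65269246-65269271, plus strand: tcctgtgaacttcttAGGGAAAtgtt
ACTR2, the same kind of match, chr2:65270566-65270591, plus strand: ctggcagttgggttcAGGGAAAtggg

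ACTR3, ARPC5 and ACTR2 were the only 3 of the 10 subunits with a match to guide positions 2 to 7 or longer in the 3' UTR of the principal transcript. ACTR3 carries the 8-mer GAGGGAAA, beginning 430 bases after the stop codon in a 3' UTR of 5141 bases. ARPC5 carries the 7-mer GAGGGAA 1151 bases after its stop codon, and a pair of AGGGAA 6-mers at 2468 and 4735 bases, in a 3' UTR of 6686 bases. ACTR2 carries AGGGAAA at 527 and at 1847 bases in a 3' UTR of 2519 bases. These are also the longest 3' UTRs of the 10: that of ARPC4 has 1511 bases and the other 6 have 327 to 825, against a median of 1139 over the 12606 genes kept whose 3' UTR could be searched. A long 3' UTR is more likely to hold any short word. The same 3 genes held matches when the longest 3' UTR of each gene was searched instead. A longer 3' UTR can hardly lose a site, so that search shows only that no other subunit gained one. Shorter 3' ends were not searched, and which 3' ends these cells use is not known. No member matched the siRNA at length: the longest stretch of its sense strand in any member transcript was 9 bases, in ACTR3, ACTR3B and ARPC5, and 17.5% of principal transcripts hold a stretch of at least 9.

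**Figure D1:**
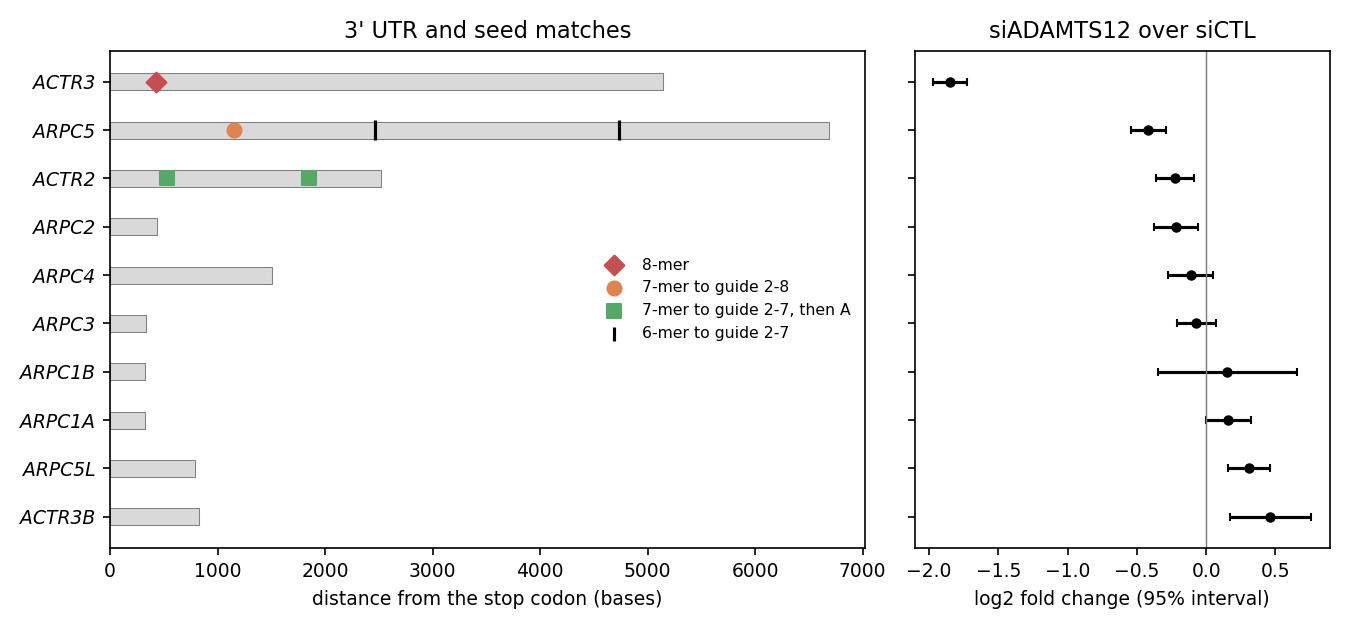
Left, the 3' UTR of each subunit's principal transcript to scale in bases from the stop codon, with matches to the siADAMTS12 guide seed as symbols. Right, the log2 fold change of siADAMTS12 over siCTL with its 95% interval from limma. ACTR3 was picked for its fall, so its interval is a description and not a test. ACTR3, ARPC5 and ACTR2 hold a match, and ACTR2 (-0.22) and ARPC2 (-0.22), which has none, lie side by side.

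The other subunits did not follow ACTR3 as a group. ACTR3 went to 27.8% of its siCTL level, while the log2 fold changes of the other 9 ran from -0.42 to 0.46. Of these 9, 3 fell (ARPC5, ACTR2 and ARPC2), 2 rose (ACTR3B and ARPC5L) and 4 did not pass the threshold (ARPC1A, ARPC1B, ARPC3 and ARPC4), by limma with Benjamini-Hochberg adjustment over all genes kept and a threshold of 0.05. Under either other scaling, quantile normalization or equal column totals, ARPC5 was the only 1 of the 9 that fell. Over all genes kept, 15.5% fell and 11.5% rose, 27.0% together. The median log2 fold change of the 9 was -0.07, beside 0.005 over all genes kept. After scaling to equal column totals, 71.4% of calls over the table were rises, against 42.6% as deposited, and the median of all genes moved to 0.13. That scaling shifts all genes nearly alike, so folds relative to the median stay as deposited by construction. Quantile normalization does not, and it left ACTR2 at -0.05 relative to its median, against -0.23 as deposited. The siADAMTS12 libraries did not overlap the siCTL libraries in 6 of the 9, against 40.9% of all genes kept.

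**Figure D2:**
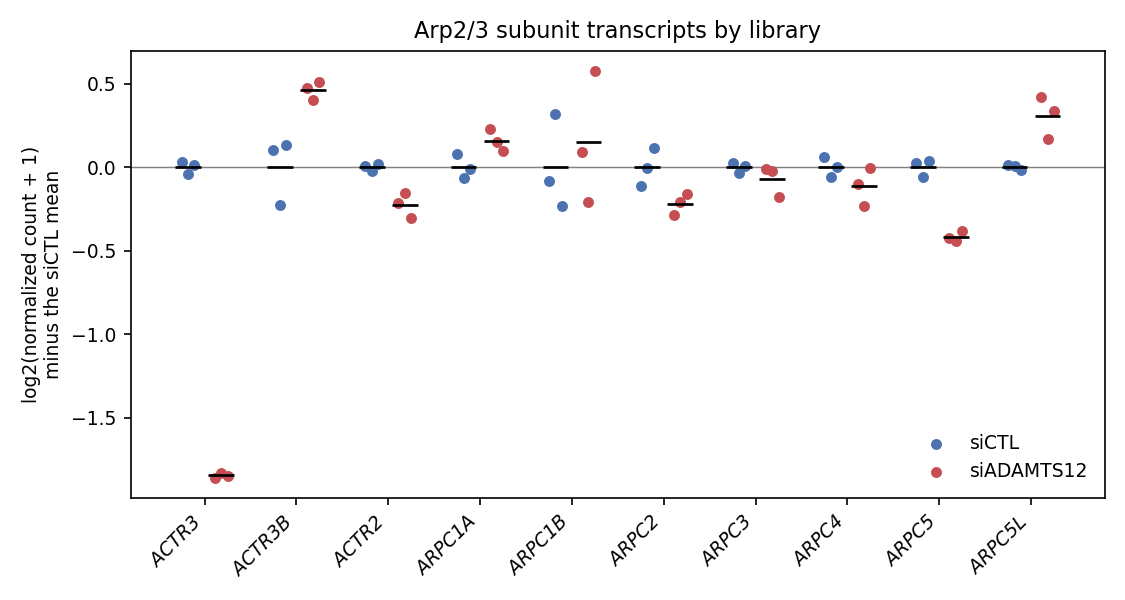
Each point is 1 library's log2(normalized count + 1) minus the siCTL mean of that gene, in siCTL (blue) and siADAMTS12 (red), with bars at the mean of 3. ACTR3 stands alone at -1.85, and the siADAMTS12 means of the other 9 lie between -0.42 and 0.46.

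Arp3, encoded by ACTR3 (ENSG00000115091, chromosome 2, 113889960 to 113962596, plus strand, GRCh38), is the larger of the actin-like subunits. Its level was 19617, 18728 and 19381 normalized counts in siCTL replicates 1, 2 and 3, and 5296, 5415 and 5344 in siADAMTS12 replicates 1, 2 and 3. All 3 siADAMTS12 libraries lay far below the lowest siCTL library and close to each other. The mean went from 19242 ± 461 to 5352 ± 59.9 (SD, n = 3), a log2 fold change of -1.85 ± 0.06 (SE). It ranked 14 by fall among the 12697 genes with a mean of at least 50. Because the libraries are bulk RNA, less ACTR3 RNA in every cell and fewer cells with ACTR3 RNA cannot be told apart.

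Arp2, encoded by ACTR2 (ENSG00000138071, chromosome 2, 65227753 to 65271253, plus strand), pairs with Arp3 at the base of the branch. Its level was 20719, 20286 and 20893 in siCTL and 17767, 18564 and 16694 in siADAMTS12. The groups did not overlap, but the shift was small beside that of ACTR3. The mean went from 20633 ± 313 to 17675 ± 938 (SD, n = 3), a log2 fold change of -0.22 ± 0.06 (SE; limma adjusted p = 0.0214). The fall did not hold under another scaling: it was -0.02 after quantile normalization (adjusted p = 0.856) and -0.10 with equal column totals (0.207). It also missed the threshold without siCTL replicate 1 (0.0610) or 3 (0.0731), without siADAMTS12 replicate 1 (0.0511) or 3 (0.0960), and without an intensity trend (0.0584). The ratio of ACTR3 to ACTR2 counts was 0.923 to 0.947 in siCTL and 0.292 to 0.320 in siADAMTS12.

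ACTR3B (ENSG00000133627, chromosome 7, 152759749 to 152855378, plus strand) encodes the alternative form of Arp3. It moved opposite to ACTR3, with 141, 112 and 144 normalized counts in siCTL and 183, 174 and 188 in siADAMTS12. The groups did not overlap, and the mean went from 132 ± 17.7 to 182 ± 7.09 (SD, n = 3; log2 fold change 0.46 ± 0.13 SE, limma adjusted p = 0.0242). The call was lost without siCTL replicate 2 (0.0807), siADAMTS12 replicate 1 (0.0609) or siADAMTS12 replicate 3 (0.0844). The coding sequences of the pair are 76.8% identical, and their principal transcripts share no stretch of 50 bases. The related gene ACTR3C was at most 6 in any library.

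ARPC2 (ENSG00000163466, chromosome 2, 218217094 to 218254356, plus strand) forms the core that grips the mother filament together with ARPC4. ARPC2 had 17825, 19264 and 20935 normalized counts in siCTL and 15820, 16689 and 17262 in siADAMTS12. The highest treated library lay just below the lowest control. The mean went from 19341 ± 1556 to 16590 ± 726 (SD, n = 3), a log2 fold change of -0.22 ± 0.07 (SE; limma adjusted p = 0.0441), close to the threshold. It was -0.03 after quantile normalization (adjusted p = 0.833) and -0.09 with equal column totals (0.318). It also missed the threshold without an intensity trend (0.113), without a filter on low values (0.0899) and without any of siCTL replicates 2 and 3 (0.0952 and 0.174) or siADAMTS12 replicates 1, 2 and 3 (0.135, 0.0693 and 0.0632). ACTR2 and ARPC2, like ACTR3, are among the 498 genes kept with a mean of at least 10000, a bound set after their values were seen. The median log2 fold change of these 498 was -0.14 as deposited and 0.04 after quantile normalization, and 35.9% of them fell. The part of this shift of abundant transcripts in the falls of ACTR2 and ARPC2 was not tested.

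ARPC4 (ENSG00000241553, chromosome 3, 9792495 to 9807726, plus strand), the partner of ARPC2 in the core, had 2013, 1847 and 1926 normalized counts in siCTL and 1796, 1640 and 1922 in siADAMTS12. The groups overlapped, and the log2 fold change was -0.11 with a 95% interval from -0.27 to 0.05 (limma adjusted p = 0.279), turning to 0.01 with equal column totals. ARPC3 (ENSG00000111229, chromosome 12, 110434825 to 110450422, minus strand), which contacts Arp3, had 4253, 4075 and 4195 in siCTL and 4143, 4109 and 3682 in siADAMTS12. Its groups overlapped too, with -0.07 and an interval from -0.21 to 0.07 (adjusted p = 0.444), turning to 0.02 after quantile normalization and 0.05 with equal column totals. For both genes the intervals leave out a change of the size of ACTR3's.

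ARPC5 sits beside Arp2 and helps to position it. ARPC5 (ENSG00000162704, chromosome 1, 183620846 to 183635757, minus strand) had 6744, 6362 and 6825 normalized counts in siCTL and 4938, 4886 and 5100 in siADAMTS12. The treated libraries lay well below every control, and the mean went from 6644 ± 247 to 4975 ± 112 (SD, n = 3; log2 fold change -0.42 ± 0.06 SE, limma adjusted p = 0.000265). Its paralogue ARPC5L (ENSG00000136950, chromosome 9, 124862130 to 124877733, plus strand) moved the other way, with 2469, 2457 and 2420 in siCTL and 3274, 2757 and 3087 in siADAMTS12. All treated libraries were above every control, and the mean went from 2449 ± 25.5 to 3039 ± 262 (0.31 ± 0.07, adjusted p = 0.00703). These were the changes among the 9 that passed in all 14 alternative settings, with log2 fold changes from -0.45 to -0.29 for ARPC5 and from 0.25 to 0.43 for ARPC5L.

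ARPC1 is the propeller-shaped subunit through which activators reach the complex. ARPC1A (ENSG00000241685, chromosome 7, 99325910 to 99366262, plus strand) had 864, 782 and 812 normalized counts in siCTL and 960, 907 and 875 in siADAMTS12. The groups did not overlap, but the log2 fold change of 0.16, with a 95% interval from -0.004 to 0.32, did not pass (limma adjusted p = 0.138), except with equal column totals (0.28, adjusted p = 0.0135). ARPC1B (ENSG00000130429, chromosome 7, 99374249 to 99394816, plus strand) had only 61, 81 and 55 in siCTL and 69, 56 and 97 in siADAMTS12, with overlapping groups and 0.15 with an interval from -0.35 to 0.65 (adjusted p = 0.671).

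Both ARPC1 levels are uncertain. The gene model AC004922.1 (ENSG00000284292) runs through both genes on the same strand and shares 76.5% of the bases of ARPC1A's principal transcript and 85.5% of ARPC1B's. A counter that drops reads assigned to 2 genes would leave most of their reads out. Which counting mode and annotation were used is not stated in the labels or the table. AC004922.1 itself was at 1 to 5 in the 6 libraries. A smaller share of ARPC4, 21.0%, lies in the same-strand model ARPC4-TTLL3, which was at 0 in all 6 libraries, and 16.1% faces TADA3 on the other strand. ARPC1B also faces another gene, PDAP1, over 6.62% of its principal transcript. For ARPC3 the shared part was 9.57%, and the principal transcripts of the other 6 subunits shared no base with an exon of another gene. Exons outside the principal transcripts were not checked for overlap. Of 16 listed copies, pseudogenes and overlapping models of the subunits, 11 were at 0 in all libraries and the highest value was 6.

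Levels were compared between genes per kb of the principal transcript. In siCTL, ARPC2 was highest (12051 ± 970 normalized counts per kb), then ACTR2 (5344 ± 81.0), ARPC3 (4117 ± 89.5) and ACTR3 (2864 ± 68.5). ARPC5L (977 ± 10.2) and ARPC5 (922 ± 34.3) were next and close, with libraries from 965 to 985 and from 883 to 947 that did not overlap. ARPC4 (747 ± 32.2) and ARPC1A (524 ± 26.5) followed, and ACTR3B (59.7 ± 7.98) and ARPC1B (43.5 ± 9.01) lay far lower, with libraries from 50.5 to 65.0 and from 36.4 to 53.6 that overlapped. With siADAMTS12, ACTR3 stood at 797 ± 8.91 per kb, below ARPC5L (1212 ± 104) and above ARPC4 (692 ± 54.7) and ARPC5 (690 ± 15.5), whose libraries overlapped each other. The order depends on the length used: per kb of all annotated exons, ACTR2 was highest in siCTL and ARPC2 came after it, and ACTR3 went from place 3 to place 8. Without a correction for length, ACTR3 made up 24.98% to 26.3% of the summed counts of the 10 genes in siCTL and 9.76% to 9.85% in siADAMTS12. The sum of the other 9 went from 56187 ± 1750 to 49213 ± 493 (SD, n = 3), 87.6% of the siCTL sum. ACTR2 and ARPC2 hold 71.1% of that siCTL sum, and the other 7 genes summed to 92.2% of siCTL, close to the 91.7% of the column totals, so the change of the sum depends on scaling. An exact permutation test of that sum (2-sided) gave p = 0.1, the lowest value possible with 3 libraries a group.

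**Figure D3:**
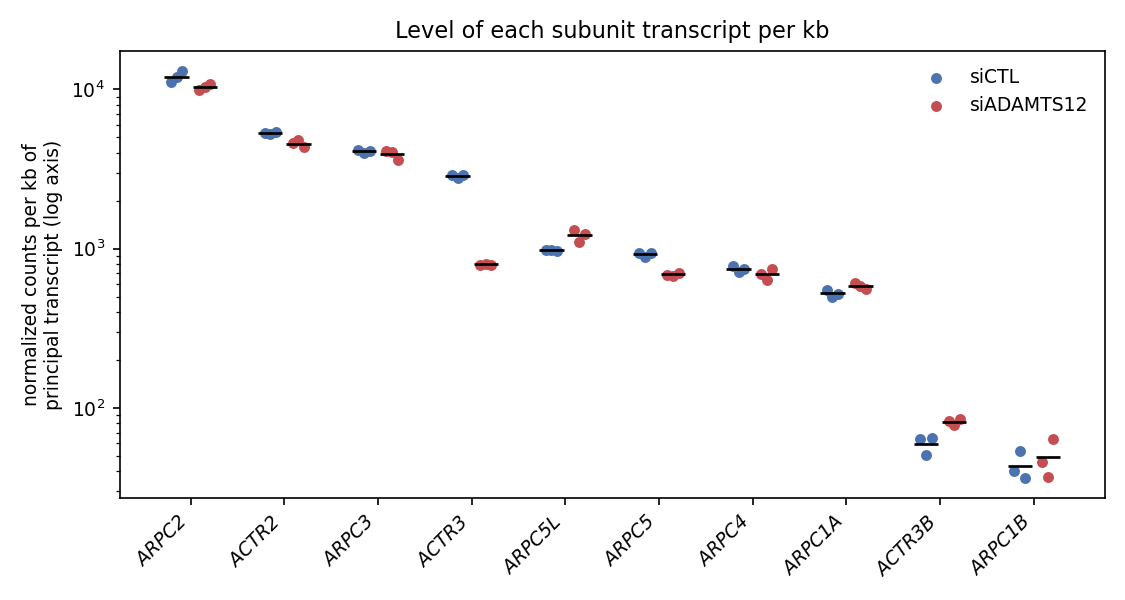
Normalized counts per kb of principal transcript on a log axis for each library of siCTL (blue) and siADAMTS12 (red), with bars at the mean of 3. ACTR3 lies between ARPC3 and ARPC5L in siCTL (2864 against 4117 and 977) and between ARPC5L and ARPC4 with siADAMTS12 (797 against 1212 and 692).

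Within each of the 3 paralogue pairs, the share of RNA from ACTR3B, ARPC1B or ARPC5L was followed. ARPC5L took 51.3%, 52.6% and 50.5% of the ARPC5 pair per kb in siCTL and 65.6%, 61.9% and 63.5% in siADAMTS12, a difference of 12.2 percentage points with no overlap (exact 2-sided permutation p = 0.1). Leaving out each library in turn gave 11.2 to 13.1 points. ACTR3B took 1.78% to 2.20% of the ACTR3 pair in siCTL and 8.88% to 9.64% in siADAMTS12, and since ACTR3 enters this share it is given with no test. ARPC1B took 7.69% ± 1.74 of the ARPC1 pair in siCTL and 7.75% ± 2.26 in siADAMTS12 (SD, n = 3; exact 2-sided permutation p = 0.9), with overlapping libraries and the uncertainty of counting given above. These levels depend on the length used: per kb of all annotated exons, ARPC1B took 3.98% and 4.02%, ACTR3B 1.35% and 6.36%, and ARPC5L 52.0% and 64.2%. Both lengths of ARPC5 include its 3' UTR of 6686 bases, so the level of the ARPC5L share rests on use of that 3' end. Before division by length, the siCTL means were 2449 normalized counts for ARPC5L and 6644 for ARPC5. The coding sequences are 69.5% identical in the ARPC5 pair and 68.9% in the ARPC1 pair, and neither pair shares a stretch of 50 bases between its principal transcripts.

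**Figure D4:**
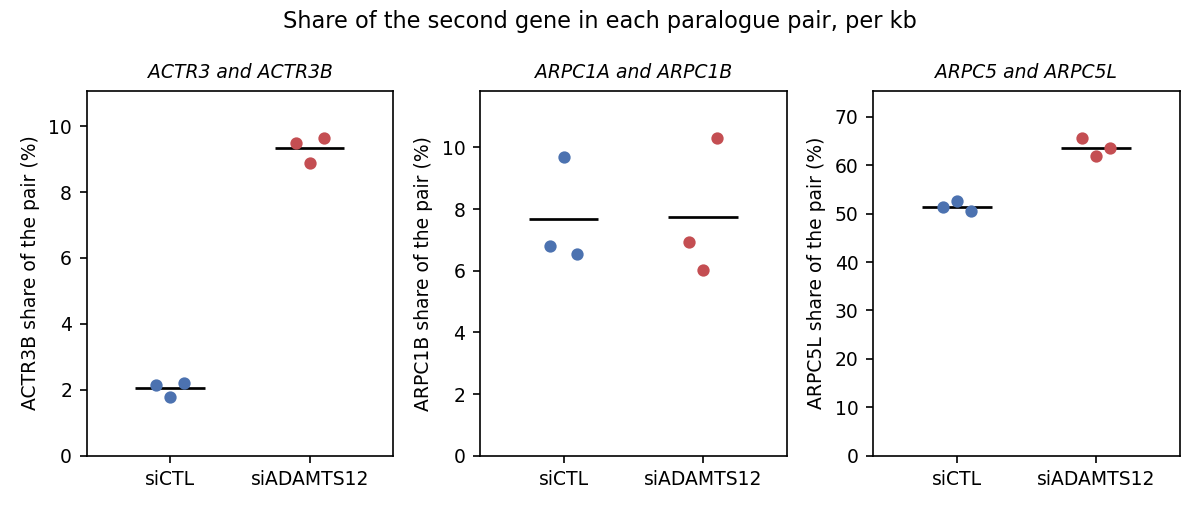
Share (percent) of ACTR3B, ARPC1B and ARPC5L in their paralogue pairs, per kb of principal transcript, with 1 point per library and bars at the mean of 3. ARPC5L goes from a mean of 51.5% to 63.7% and ACTR3B from 2.04% to 9.33%, while the ARPC1B libraries overlap.

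The subunits were set beside all genes with the same kind of seed match. The 8-mer of ACTR3 is in 6.15% of the 12606 3' UTRs searched, and the 775 genes with it had a median log2 fold change of -0.24 with quartiles at -0.57 and 0.01. In that class 47.5% fell, against 18.3% of all genes searched and 12.0% of those with no match. ACTR3, at -1.85, lay far below the lower quartile of its class, a place that follows from its choice for a strong fall. The 7-mer of ARPC5 was the best match of 9.48% of genes, with a median of -0.09 and quartiles at -0.33 and 0.12, and 28.4% fell. ARPC5, at -0.42, lay below that lower quartile. The AGGGAAA match of ACTR2 was the best match of 11.2% of genes, with a median of -0.06 and quartiles at -0.28 and 0.12, and 27.0% fell. ACTR2, at -0.22, lay within them. The 7 subunits without a match ran from -0.22 to 0.46, beside a median of 0.02 and quartiles at -0.14 and 0.19 in the 7393 genes without one. A match is a description of the letters, and its part in the fold change of any subunit was not tested.

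The genes whose 6-library pattern was most like that of ACTR3 were AFAP1L1, SUMF1, ADAMTS12 itself, TRIM58 and CDK7. Likeness was the root mean square difference of log2 profiles over the 6 libraries, each set to its own siCTL mean, and it was 0.05, 0.08, 0.09, 0.09 and 0.09 for these 5. AFAP1L1 went from 1486 ± 18.04 to 413 ± 19.3 and CDK7, a kinase of transcription initiation, from 1735 ± 96.1 to 509 ± 40.0 (SD, n = 3). AFAP1L1 and CDK7 hold the 8-mer seed match, SUMF1 and TRIM58 the 7-mer GAGGGAA, and ADAMTS12 AGGGAAA. Of the 12606 genes searched, 3385 hold a 7-mer or 8-mer match. The 5 genes were picked for a fall like that of ACTR3, so their matches are a description only. ADAMTS12 also holds the whole 19-base sense strand as the target.

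Genes around the complex were read from 7 lists with 87 genes, 81 of them kept, of which 26 fell and 9 rose as deposited. Over all genes kept, 15.5% fell and 11.5% rose as deposited, 13.3% and 13.9% after quantile normalization, and 9.89% and 24.7% with equal column totals, and list counts are to be read against these shares. Of the 81, 21 hold a 7-mer or 8-mer seed match, of which 11 fell (52.4%) and 2 rose. A 6-mer is held by 11, of which 3 fell (27.3%) and 1 rose, and 3 were not searched, of which 2 fell and 0 rose. The remaining 46 hold none, of which 10 fell (21.7%) and 6 rose. Among all genes searched, 32.2% of those with a 7-mer or 8-mer fell, 17.7% of those with a 6-mer and 12.0% of those with no match. With equal column totals, which raises nearly all genes alike, the medians of the activator, WAVE complex and formin lists moved from below 0 to 0.03, 0.07 and 0.02, beside 0.13 over all genes. Upstream, the list of nucleation-promoting factors, which switch Arp2/3 on, also held binding partners of such factors, among them WIPF1, WIPF2 and NCKIPSD. Of its 11 genes kept, 4 fell and 2 rose, with a median of -0.09. The partners WIPF1 and WIPF2 were among those that fell and NCKIPSD among those that rose. WASF3, a WAVE protein, went from 2074 ± 133 to 1327 ± 77.3 (log2 fold change -0.64, limma adjusted p = 6.22e-05), while WIPF2, which binds N-WASP, and JMY, an activator that also nucleates actin, were at -0.37 and -0.39. WASF3 and WIPF2 hold the 8-mer and JMY the 7-mer GAGGGAA. WHAMM, another activator, holds AGGGAAA and rose (0.23, adjusted p = 0.0384). SPIRE2, of the list of formins and other linear nucleators, holds GAGGGAA and rose too (0.44, adjusted p = 0.0273). These are the 2 that rose among the 21, and both were chosen for mention after their values were seen. The WAVE regulatory complex holds WAVE proteins inactive until a signal releases them. Of its 7 genes kept, 2 fell and none rose, and at an unadjusted limma p under 0.05, 3 were lower and 1 was higher. Those that fell were BRK1 at -0.25 and ABI3 at -0.86, both with no seed match. After quantile normalization 1 fell and 1 rose, and with equal column totals 0 fell and 2 rose. ABI3 was low (59, 86 and 113 counts in siCTL against 31, 56 and 54), and neither call was stable: BRK1 missed the threshold in 6 and ABI3 in 7 of 14 alternative settings. The WASH complex activates Arp2/3 on endosomes, and its list of 8 genes also held CCDC22 and CCDC93, which belong to a partner complex. None of the 8 passed the limma threshold, and 2 had an unadjusted p under 0.05. The smallest p was that of WASHC2C (0.15, adjusted p = 0.0917), which holds a 6-mer AGGGAA. WASHC2C passed after quantile normalization (0.26, adjusted p = 0.0058) and with equal column totals (0.27, 0.00419).

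Of 14 genes that restrain Arp2/3, take branches apart or act on the filaments as its counterparts, 5 fell and 2 rose, with a median of -0.15, and 3 fell under either other scaling. ARPIN, an inhibitor of the complex, went from 1243 ± 55.9 to 924 ± 58.6 (log2 fold change -0.43, limma adjusted p = 0.00125), the coronin CORO2B was at -0.61 and the actin-oxidizing enzyme MICAL2 at -0.47. ARPIN holds AGGGAAA and CORO2B a 6-mer AGGGAA, and MICAL2 was not searched. Of 15 formins and other nucleators of unbranched filaments, 4 fell and 2 rose with a median of -0.10, and FMNL2, DIAPH3 and FMN1 were at -0.49, -0.30 and -0.49. FMN1 holds the 8-mer, FMNL2 a 6-mer AGGGAA and DIAPH3 no match. With equal column totals 1 of the 15 fell and 2 rose. DIAPH3 missed the threshold in 3 and FMN1 in 4 of 14 alternative settings.

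Of 19 actin and filament turnover genes, 9 had a mean of at least 10000, as ACTR2, ARPC2 and ACTR3 do. As deposited, 11 of the 19 fell and 2 rose, with a median of -0.23. That count depended on scaling: 4 fell and 3 rose after quantile normalization (median -0.05), and 6 fell and 3 rose with equal column totals (median -0.10). CAPZA2, a capping protein subunit that closes filament ends in branched networks, went from 4281 ± 270 to 1889 ± 77.2 (log2 fold change -1.18, limma adjusted p = 3.12e-07) and holds the 8-mer. TWF1, twinfilin, went from 6514 ± 229 to 4494 ± 159 (-0.54, adjusted p = 4.99e-05), whereas profilin PFN2 rose from 3327 ± 77.1 to 6009 ± 159 (0.85, adjusted p = 1.04e-06). TWF1 holds AGGGAAA and PFN2 no match. Of 7 actin-related proteins outside the complex, none fell by limma (0 were lower at an unadjusted p under 0.05) and 1 rose, counts that a list this short gives near the table-wide shares. ACTR1A, the filament subunit of dynactin, holds a 6-mer AGGGAA and rose from 4698 ± 255 to 6425 ± 330 (0.45, adjusted p = 0.000369). These lists were described by counts and medians and not tested against other genes.

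**Figure D5:**
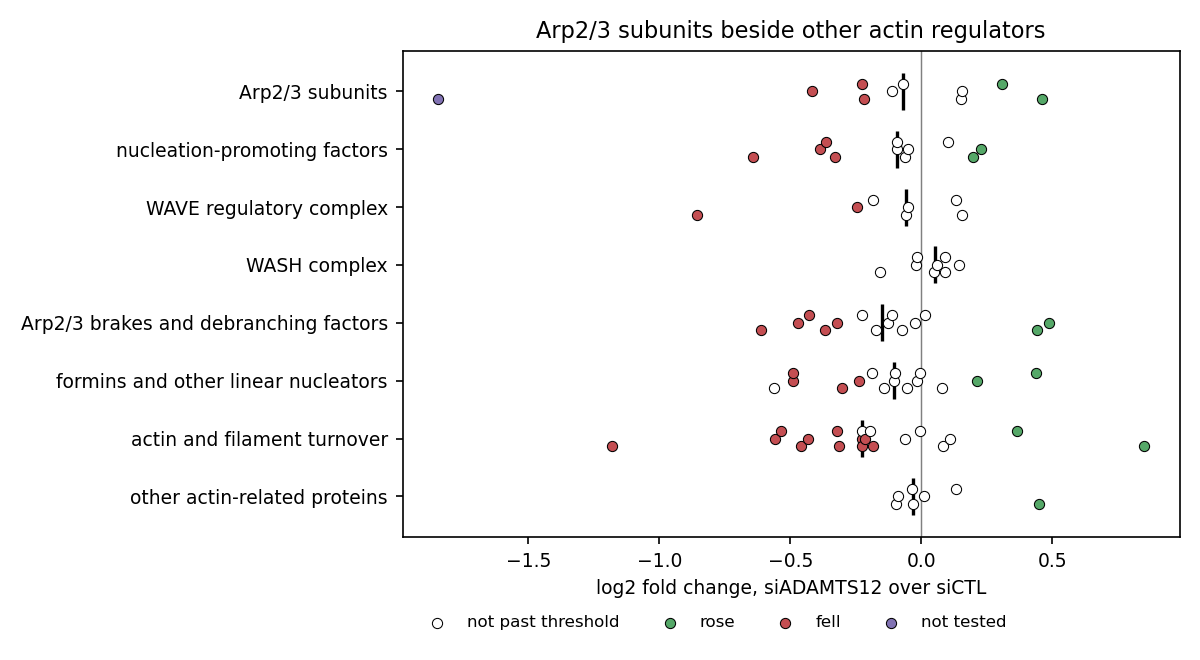
Log2 fold change of siADAMTS12 over siCTL for each gene kept, by list, with fill showing whether limma called it and vertical bars at the list median (without ACTR3 in the top row). ACTR3, which was picked for its fall, is at -1.85 and lies below every gene of the 7 lists, of which the lowest is CAPZA2 at -1.18.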

How the data were processed

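The 6 libraries were made from 500 ng of total RNA with a stranded mRNA kit, per the labels' protocols. The authors deposited normalized counts per gene as whole numbers, treated here as a score rather than raw counts. STAR, HTSeq, DESeq2 and GRCh38 are named without versions, per the submitters' processing notes, while annotation, counting mode and strand option are not given in these sources. Median-of-ratios factors of the deposited columns were 1.003 to 1.007, so they were already scaled to each other. Depth is unknown and no count model was fitted.

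Values were taken as log2(value + 1), which understates the changes of low genes, for genes with a mean of at least 10. Limma 3.58.1 (R 4.3.3; lmFit, eBayes with intensity trend) was fitted over the 6 libraries on group alone, and 2-sided p-values were adjusted by Benjamini-Hochberg over 15637 genes. On simulated data of this comparison, with a mean of 15479 genes tested, the fit called 51.6% of genes lowered by a log2 value of 0.5 and 89.9% at 1. False calls were 4.86% of calls over all sizes of change together. The simulation gave every gene the same dispersion and lowered a small set of genes, with none raised. These rates may therefore differ in the real libraries. Deviations of same-numbered libraries from their group means correlated at 0.367, 0.135 and 0.133 for replicates 1, 2 and 3 (-0.193 to 0.063 for different numbers). A replicate block, run as an alternative fit, paired libraries by the number in the labels. The labels give only that number and do not state a pairing.

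The members and lists were chosen with earlier results of these data known. A further gene list is not reported here. The named genes are ADAMTS12, the 10 members, their copies, the 5 genes most like ACTR3 (mean at least 50, no clone-based symbols), and from each list up to 3 called members of mean at least 50 with the smallest adjusted p (or the smallest p where none passed). A few other listed genes are named to describe a list or, for WHAMM and SPIRE2, after their values were seen. Principal transcripts (APPRIS tag, then basic set, then 3' UTR length) and exons are from GENCODE 29 on GRCh38. Seed matches were searched on the sense strand of 3' UTRs of at least 30 bases, and overlapping words were given the longest class. Alternatives were other pseudocounts, filters and scalings, no trend, the block, each library left out, other lengths and other 3' UTRs. Python 3.11.15, numpy 2.4.6, pandas 2.3.3, scipy 1.17.1, Biopython 1.88 and matplotlib 3.10.9 were used.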

Additional observations from a re-analysis of the deposited data

How the results depend on the processing

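The fall of ARPC5, the rise of ARPC5L and the fall of ADAMTS12 passed in all 14 alternatives run. The count of other subunits that fell, 3 as reported, was 1 after quantile normalization, with equal column totals and without an intensity trend, and 1 to 2 over the fits without each library (1 without siCTL replicate 3, siADAMTS12 replicate 1 or siADAMTS12 replicate 3). The count that rose, 2 as reported, was 1 to 2 without each library and 3 with equal column totals. ACTR3 was at -1.69 after quantile normalization and -1.72 with equal column totals. The median of the 9 others turned to 0.0176 and 0.0530 under these scalings, the values of ARPC3, which is the middle gene, and ARPC4 was at 0.0114 with equal column totals. ARPC1B ran from -0.0586 without siADAMTS12 replicate 3 to 0.332 without siADAMTS12 replicate 2. The ARPC1B share difference, 0.06 percentage points as reported, ran from -1.22 to 1.06 without each library, with -0.38, -0.51 and -1.22 without siCTL replicate 1, siCTL replicate 3 and siADAMTS12 replicate 3. Over the table, 1546 genes fell and 3868 rose with equal column totals, against 2424 and 1798 as deposited. The replicate block called 5482 genes, against 4222, and changed no call of a subunit. Depth is unknown, so the precision of low genes such as ARPC1B and ACTR3B rests on 3 libraries per group. With 3 against 3, no exact permutation p can go below 0.1.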
